A study of Rattus norvegicus with 44 samples.

Results

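The choroid plexus of rats exposed to amphetamine was compared between 1 day and 3 h after the exposure. The comparison uses 8 of the 44 arrays of the series, 4 of AMPH 1 day and 4 of AMPH 3 h, chosen by tissue, treatment and time as labelled. Each of the 8 arrays carried RNA pooled from the choroid plexuses of 3 rats. All rats were male Sprague-Dawley rats of the NCTR strain, 3 months old. AMPH is labelled as amphetamine toxicity, and no dose is given in the labels. The other choroid plexus groups were EIH 1 day and EIH 3 h (environmental hyperthermia without amphetamine) and saline 3 h, also 4 pools each. No choroid plexus saline group of 1 day was analysed here, so time since exposure cannot be told apart from anything else that differs between the 1 day and 3 h arrays. The 4 EIH 1 day pools carry titles that call them controls, while their source and treatment labels say EIH. By the rat numbers, pools 2 to 4 of them each list a rat that also gave a blood array titled 1 day EIH. Pool 3 also lists a rat number of an AMPH 3 h pool, and pool 4 one of an EIH 3 h pool. Trunk blood of saline rats, 4 arrays at 1 day and 4 at 3 h, is used below as a background of time without exposure. In blood too, time cannot be told apart from other differences between the 1 day and 3 h arrays. Their median deposited intensities were 165 to 171 at 1 day and 140 to 142 at 3 h. By the titles, 1 of the 1 day blood arrays is from a rat number also listed in a saline 3 h choroid plexus pool.

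The choroid plexus is the tissue that secretes cerebrospinal fluid. A single layer of epithelium, joined by tight junctions, covers a core of vessels, macrophages and stroma. Neurotoxic amphetamine exposure raises body temperature, and heat unfolds proteins. Cells answer cytosolic unfolding through heat shock factor, which switches on chaperone genes, and unfolding in the endoplasmic reticulum (ER) through a separate pathway that raises chaperones of that compartment.

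Values are log2 of the deposited intensity, with each array shifted so that all 20 choroid plexus arrays have the same median. The median intensity was 167 to 168 on the AMPH 1 day arrays, against 142 to 143 on the AMPH 3 h arrays. This gap depended on the level, so shifting whole arrays cannot remove it at every level. Genes were split by level into 4 sets of equal size. From the dimmest to the brightest set, the median differences as deposited were 0.21, 0.19, 0.07 and -0.07 (1 day minus 3 h, log2). After the shift they were 0.06, 0.04, -0.08 and -0.23. The shift thus left part of the gap in the dimmest set and made the negative difference of the brightest set larger. With quantile normalization the dimmest and brightest sets had -0.00326 and -0.12. For bright genes with small differences, values after quantile normalization are also given.

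A few AMPH pools stood apart from their groups. AMPH 1 day pool 2 had a median correlation of 0.851 with the other 19 choroid plexus arrays, over 11704 probes, while the other 7 AMPH pools had 0.9545 to 0.9688. Markers of the epithelium were low in that pool. The median level of 28 such genes was 11.74, 9.03, 11.89 and 12.12 in AMPH 1 day pools 1 to 4, against 11.98, 12.15, 12.18 and 12.01 in AMPH 3 h pools 1 to 4. Kl, which encodes the hormone coreceptor klotho, was at 11.31, 8.49, 11.64 and 11.63 in AMPH 1 day pools 1 to 4, against 11.70, 11.72, 11.82 and 11.61 in AMPH 3 h pools 1 to 4. The folate receptor gene Folr1 was at 14.09, 10.60, 13.99 and 14.14 in AMPH 1 day pools 1 to 4, against 14.22, 14.30, 14.38 and 14.21 in AMPH 3 h pools 1 to 4. In both genes AMPH 1 day pool 2 lay far under the other 7 pools, which lay close together.

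Markers of stroma and meninges were high in the same pool, with a median over 17 genes of 11.94, 14.34, 11.59 and 11.56 in AMPH 1 day pools 1 to 4, against 11.87, 11.91, 11.83 and 11.71 in AMPH 3 h pools 1 to 4. Collagen gene Col1a1 was at 9.24, 14, 9.54 and 8.67 in AMPH 1 day pools 1 to 4, against 8.41, 8.48, 8.58 and 8.75 in AMPH 3 h pools 1 to 4. The bone matrix gene Bglap, encoding osteocalcin, was at 5.23, 14.27, 9.31 and 5.31 in AMPH 1 day pools 1 to 4, against 5.41, 4.51, 4.95 and 5.16 in AMPH 3 h pools 1 to 4. Against the mean of the other 3 AMPH 1 day pools, pool 2 was over 2-fold lower in 24 of 28 epithelial genes and over 2-fold higher in 13 of 17 stromal genes. Over all 9963 genes it was over 2-fold lower in 1669 and over 2-fold higher in 1974. In pooled tissue, fewer cells of a type and less RNA per cell cannot be told apart. Of the EIH 1 day pools, pool 1 was the highest in the same stromal list, with medians of 13.08, 10.91, 11.39 and 11.39 in EIH 1 day pools 1 to 4. By their titles, AMPH 1 day pool 2 and AMPH 3 h pool 2 each list a rat number that recurs in another pool.

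Pool 4 of each AMPH time went against its group in stress genes. The median level of the 29 heat shock and chaperone genes was 10.07, 9.91, 10.07 and 11.38 in AMPH 1 day pools 1 to 4, against 11.05, 11.34, 11.35 and 10.69 in AMPH 3 h pools 1 to 4. That of 23 ER stress genes was 9.47, 9.56, 9.40 and 10.53 in AMPH 1 day pools 1 to 4, against 10.75, 10.91, 10.54 and 9.71 in AMPH 3 h pools 1 to 4. AMPH 1 day pool 4 lay above all AMPH 3 h pools in the heat shock list and above AMPH 3 h pool 4 alone in the ER stress list. AMPH 3 h pool 4 lay under the other AMPH 3 h pools and above AMPH 1 day pools 1 to 3 in both lists. AMPH 1 day pool 4 was the highest of its group in 24 of 29 heat shock genes and 20 of 23 ER stress genes, against 24.6% of the 9173 genes measured on all 8 arrays. AMPH 3 h pool 4 was the lowest of its group in 22 of 29 and 21 of 23, against 30.9%. Over the 11704 complete probes, the array most like AMPH 1 day pool 4 was an EIH 3 h pool (r = 0.973). The array most like AMPH 3 h pool 4 was a saline 3 h pool (r = 0.972). This was not particular to these pools, since only AMPH 3 h pools 2 and 3 were nearest to an array of their own group. AMPH 1 day pool 1 was nearest to a saline 3 h pool (r = 0.975), and AMPH 3 h pool 1 to an EIH 3 h pool (r = 0.982). Whether the labels of these pools were exchanged was not tested. The pools kept the groups of their labels throughout, so every AMPH time difference below depends on those labels.

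**Figure D1:**
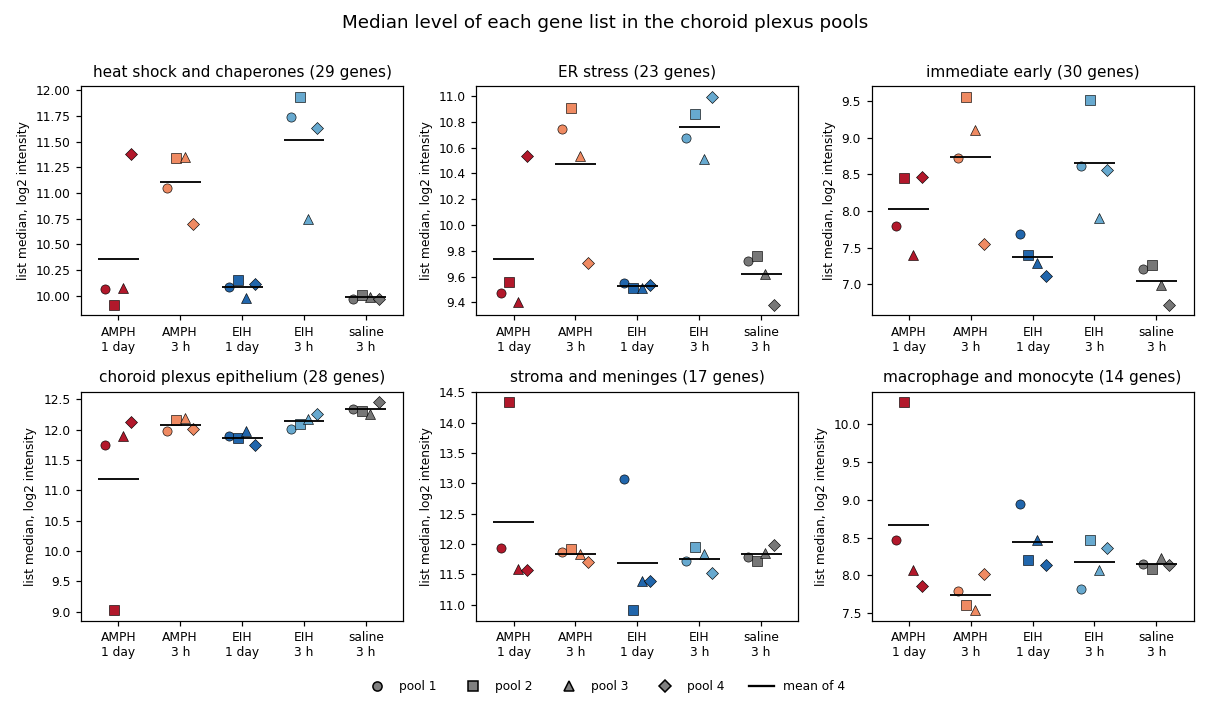
Median level of 6 gene lists in each choroid plexus pool, as log2 intensity after arrays were shifted to the same median. Each symbol is 1 pool of 3 rats and each line the mean of 4 pools. AMPH 1 day pool 4 lies far above the other AMPH 1 day pools in the heat shock and ER stress lists, and AMPH 1 day pool 2 lies apart in the epithelial, stromal and macrophage lists.

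With all 8 pools, no gene passed the test. Each gene was fitted with limma over the 20 choroid plexus arrays, and calls required a p under 0.05 after Benjamini-Hochberg adjustment over all genes. Of 9875 genes tested, 0 were called (0%), and the smallest adjusted p was 0.136. At an unadjusted p under 0.05 there were 1767 genes, of which 1291 were lower (13.1% of those tested) and 476 higher (4.82%) at AMPH 1 day than at AMPH 3 h. Their lower share was 73.1%, against 69.8% after quantile normalization and 26.1% on the values as deposited. The median difference over all genes was -0.08 log2, and 0.07 on the values as deposited. The 4 AMPH 1 day pools lay wholly below the 4 AMPH 3 h pools in 599 genes (6.07%) and wholly above them in 158 genes (1.6%).

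Without AMPH 1 day pool 2, again 0 of 9475 genes were called (0%), with 1382 at an unadjusted p under 0.05. When AMPH 1 day pool 4 was left out instead, 503 of 9531 genes were called, 418 lower (4.39%) and 85 higher (0.892%). Without AMPH 3 h pool 4 there were 13 called genes, 12 lower and 1 higher. Without pool 4 of both times there were 739 of 9403, with 541 lower (5.75%) and 198 higher (2.11%). These pools were left out because their stress genes went against their group, so the counts describe the other pools and are not independent support. Everything named below from the 8 pools is given as values, and "called" refers to the stated subset.

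Heat shock and chaperone genes were mostly at a lower level at AMPH 1 day than at AMPH 3 h, but not in pool 4. Of the 29 genes tested, 19 had an unadjusted p under 0.05 with a negative difference and 0 with a positive one, against 13.1% and 4.82% of all genes. The median difference of the list was -0.85 log2, or -0.71 after quantile normalization. It was -0.64 without AMPH 1 day pool 2 and -1.10 without AMPH 1 day pool 4. In that last set, 17 of 29 genes were called lower, against 4.39% of all genes. AMPH 1 day pool 4 was left out for its high levels of these genes. This count, and the single gene values below without that pool, are thus no independent support.

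Hspb1, a small heat shock protein that holds unfolded proteins, was at 13.08, 11.26, 11.45 and 15.63 in AMPH 1 day pools 1 to 4, against 15.78, 15.70, 15.80 and 13.40 in AMPH 3 h pools 1 to 4. It was high in AMPH 3 h pools 1 to 3 and in AMPH 1 day pool 4, and lower elsewhere, so the groups overlapped. The difference was -2.31 ± 0.71 log2 (SE; unadjusted p = 0.00478, limma adjusted p = 0.153). Without AMPH 1 day pool 4 it was -3.24 ± 0.50 log2 (limma adjusted p = 0.00696). Saline 3 h pools had 11.18, 11.29, 11.41 and 11.38, close to AMPH 1 day pools 2 and 3.

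Hsph1, the Hsp110 exchange factor that recycles Hsp70, was at 9.64, 8.27, 9.39 and 11.54 in AMPH 1 day pools 1 to 4, against 11.49, 11.79, 11.52 and 9.99 in AMPH 3 h pools 1 to 4. Pool 4 of each time was again out of place, and the difference was -1.49 ± 0.50 log2 (unadjusted p = 0.00892, limma adjusted p = 0.166). Hspa1b, the stress-inducible Hsp70, was at 12.54, 10.89, 10.09 and 15 in AMPH 1 day pools 1 to 4, against 12.18, 14.12, 15.59 and 12.22 in AMPH 3 h pools 1 to 4. The AMPH 1 day pools spread widely and spanned most of the AMPH 3 h range. A dimmer probe of Hspa1b, at a mean level of 5.46, ran the other way with a difference of 1.86 log2. Dnajb1, the Hsp40 that delivers clients to Hsp70, was at 11.16, 10.08, 10.77 and 12.11 in AMPH 1 day pools 1 to 4, against 11, 11.34, 13.18 and 11.43 in AMPH 3 h pools 1 to 4, again with wide overlap.

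In the cytosolic Hsp90 and mitochondrial chaperonin genes given here, pool 4 was the highest AMPH 1 day pool and the lowest AMPH 3 h pool. Hsp90ab1, the constitutive cytosolic Hsp90, was at 14.65, 13.99, 14.50 and 15.07 in AMPH 1 day pools 1 to 4, against 15.61, 15.48, 15.67 and 15.16 in AMPH 3 h pools 1 to 4. Every AMPH 1 day pool lay under every AMPH 3 h pool, and the difference was -0.93 ± 0.21 log2 (unadjusted p = 0.00045, limma adjusted p = 0.136). The inducible Hsp90aa1 was at 13.23, 12.01, 13.31 and 14.51 in AMPH 1 day pools 1 to 4, against 14.71, 14.59, 14.73 and 13.90 in AMPH 3 h pools 1 to 4. Hspe1, the lid of the mitochondrial chaperonin, was at 14.02, 13.24, 13.89 and 15.48 in AMPH 1 day pools 1 to 4, against 15.62, 15.56, 15.41 and 14.59 in AMPH 3 h pools 1 to 4, and its partner Hspd1 was at 10.93, 9.98, 10.61 and 12.40 in AMPH 1 day pools 1 to 4, against 12.71, 12.65, 12.64 and 11.28 in AMPH 3 h pools 1 to 4. In Hsp90aa1, Hspe1 and Hspd1, AMPH 1 day pool 4 overlapped the AMPH 3 h pools. Cryab, a small heat shock protein, was at 12.92, 12.78, 12.31 and 14.63 in AMPH 1 day pools 1 to 4, against 15.18, 14.80, 14.93 and 13.61 in AMPH 3 h pools 1 to 4, with a difference of -1.47 ± 0.43 log2. Hspa8, the constitutive Hsp70, had a difference of -0.21 ± 0.22 log2 (-0.05 after quantile normalization), and Bag3, a cochaperone of Hsp70, had -0.36 ± 0.71 log2 with its highest AMPH 1 day level in pool 2.

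**Figure D2:**
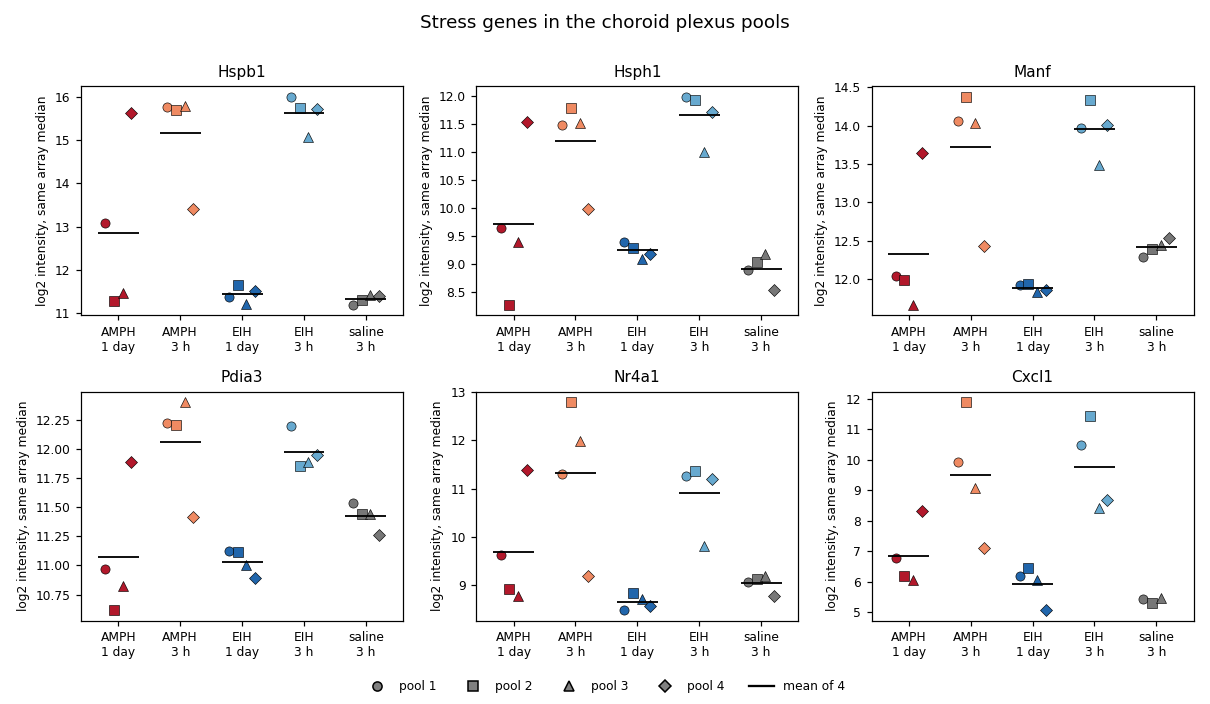
Level of 6 stress genes in each choroid plexus pool, as log2 intensity after arrays were shifted to the same median. Each symbol is 1 pool of 3 rats and each line the mean of 4 pools. In Hspb1, Hsph1, Manf and Pdia3, AMPH 1 day pool 4 lies above the other AMPH 1 day pools and AMPH 3 h pool 4 below the other AMPH 3 h pools.

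Heat shock factor binds inverted repeats of GAA. The 300-base windows around the gene starts of RefSeq (assembly GRCr8, 250 bases before the start and 50 after) were searched on both strands for GAANNTTC and TTCNNGAA, which may overlap each other. At least 1 match was found for 18 of the 27 heat shock list genes with a window (66.7%), for 0 of 21 ER stress genes, and for 15.9% of all 33469 windows. The 150 bases before the start are shown for 3 of the genes above, since they carry the repeat. They read 5′ to 3′ towards the gene, with matches in capitals.
Hspb1 (chr12:26432302-26432451, minus strand): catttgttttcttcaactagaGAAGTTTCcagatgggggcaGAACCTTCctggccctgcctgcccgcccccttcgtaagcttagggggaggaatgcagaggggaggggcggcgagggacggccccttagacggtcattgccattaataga
Hsph1 (chr12:10427218-10427367, plus strand): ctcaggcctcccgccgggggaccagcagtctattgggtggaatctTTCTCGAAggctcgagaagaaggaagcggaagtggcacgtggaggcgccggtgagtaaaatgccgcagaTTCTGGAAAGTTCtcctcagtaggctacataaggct
Hspe1 (chr9:64084177-64084326, plus strand): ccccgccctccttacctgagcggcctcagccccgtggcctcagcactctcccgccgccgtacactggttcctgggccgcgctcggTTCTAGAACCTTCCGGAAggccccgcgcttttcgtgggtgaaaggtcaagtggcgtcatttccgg
The matches begin 129, 105 and 65 bases before the start. A match describes the letters in the window and is no measure of binding.

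Most ER stress genes also had pool 4 as the highest AMPH 1 day pool, and most had pool 4 as the lowest AMPH 3 h pool. Of 23 genes tested, 15 had an unadjusted p under 0.05 with a negative difference and 0 with a positive one (13.1% and 4.82% of all genes). The median difference was -0.79 log2, -0.66 after quantile normalization, -0.60 without AMPH 1 day pool 2 and -1.04 without AMPH 1 day pool 4. With that pool left out, 14 of 23 were called lower, against 4.39% of all genes. It was left out for its high levels of stress genes. This count, and the single gene values below without that pool, are thus no independent support.

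Manf, a secreted ER protein that protects stressed cells, was at 12.03, 11.99, 11.66 and 13.64 in AMPH 1 day pools 1 to 4, against 14.06, 14.38, 14.04 and 12.42 in AMPH 3 h pools 1 to 4. The difference was -1.40 ± 0.39 log2 (unadjusted p = 0.00252, limma adjusted p = 0.136), and -1.83 ± 0.33 without AMPH 1 day pool 4 (limma adjusted p = 0.0125). Saline 3 h pools had 12.29, 12.39, 12.45 and 12.53, a little above AMPH 1 day pools 1 to 3. Pdia3, a disulfide isomerase of glycoprotein folding, was at 10.97, 10.62, 10.82 and 11.89 in AMPH 1 day pools 1 to 4, against 12.22, 12.21, 12.40 and 11.42 in AMPH 3 h pools 1 to 4, with a difference of -0.99 ± 0.23 log2 (unadjusted p = 0.000557, limma adjusted p = 0.136). Dnajb9, a cochaperone of BiP, was at 9.30, 9.56, 9.40 and 10.28 in AMPH 1 day pools 1 to 4, against 10.57, 10.91, 10.73 and 9.71 in AMPH 3 h pools 1 to 4, with a difference of -0.85 ± 0.24 log2.

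Creld2, an ER stress-induced isomerase, was at 9.47, 8.93, 9.33 and 10.91 in AMPH 1 day pools 1 to 4, against 11.27, 11.62, 11.15 and 9.64 in AMPH 3 h pools 1 to 4. Hspa5, which encodes BiP itself, was at 14.29, 13.31, 13.83 and 15.75 in AMPH 1 day pools 1 to 4, against 16.05, 16.05, 16.02 and 14.52 in AMPH 3 h pools 1 to 4. Its AMPH 3 h pools 1 to 3 were as bright as transthyretin, at the top of the scale, where higher levels could not be read. Dnajc3, an inhibitor of the translation kinase PERK, was at 10.51, 9.94, 10.37 and 11.30 in AMPH 1 day pools 1 to 4, against 11.37, 11.55, 11.36 and 10.92 in AMPH 3 h pools 1 to 4. Syvn1, a ubiquitin ligase of ER-associated degradation, was at 10.92, 10.73, 10.98 and 11.57 in AMPH 1 day pools 1 to 4, against 12.13, 12.15, 12.15 and 11.41 in AMPH 3 h pools 1 to 4, a difference of -0.91 ± 0.18 log2 (unadjusted p = 0.000135, limma adjusted p = 0.136). A dimmer Syvn1 probe, at a mean level of 6.67, had -0.19 log2. Across these genes, AMPH 3 h pools 1 to 3 and AMPH 1 day pool 4 formed the high side.

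The ER stress element joins CCAAT and CCACG across 9 bases. It was found on either strand in 7 of 21 windows of the ER stress list (33.3%), in 1 of 27 of the heat shock list (3.7%) and in 0.0657% of all windows. The 150 bases before the start are shown for 3 genes whose pool values are given above, with the element in capitals.
Hspa5 (chr3:38452866-38453015, plus strand): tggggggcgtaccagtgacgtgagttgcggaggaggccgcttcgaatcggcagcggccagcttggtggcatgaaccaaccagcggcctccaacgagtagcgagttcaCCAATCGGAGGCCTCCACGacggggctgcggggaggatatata
Creld2 (chr7:121789234-121789383, plus strand): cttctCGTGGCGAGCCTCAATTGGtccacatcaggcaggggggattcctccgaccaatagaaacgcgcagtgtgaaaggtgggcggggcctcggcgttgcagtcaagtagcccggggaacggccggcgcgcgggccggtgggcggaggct
Dnajc3 (chr15:102432517-102432666, plus strand): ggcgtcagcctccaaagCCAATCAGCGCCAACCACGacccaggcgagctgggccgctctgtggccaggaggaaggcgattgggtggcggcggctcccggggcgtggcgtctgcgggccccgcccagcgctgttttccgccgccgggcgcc
In Creld2 the element lies on the opposite strand. The elements begin 43, 145 and 133 bases before the starts of Hspa5, Creld2 and Dnajc3.

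Immediate early genes, the transcription factors and phosphatases that cells switch on within minutes of a stimulus, had a median difference of -0.79 log2 over 31 genes tested. An unadjusted p under 0.05 was reached by 9 with a negative and 1 with a positive difference (13.1% and 4.82% of all genes). Nr4a1, an orphan nuclear receptor, was at 9.63, 8.91, 8.78 and 11.39 in AMPH 1 day pools 1 to 4, against 11.31, 12.79, 11.99 and 9.19 in AMPH 3 h pools 1 to 4, with a difference of -1.64 ± 0.63 log2 (unadjusted p = 0.0185, limma adjusted p = 0.2). Fos, a subunit of the AP-1 factor, was at 7.37, 7, 6.15 and 8.77 in AMPH 1 day pools 1 to 4, against 8.67, 11.12, 9.17 and 7.08 in AMPH 3 h pools 1 to 4. Only AMPH 3 h pool 2 was far above the rest. Atf3, a factor shared by several stress pathways, was at 7.82, 8.31, 7.22 and 9.36 in AMPH 1 day pools 1 to 4, against 9.66, 9.84, 10.05 and 7.76 in AMPH 3 h pools 1 to 4. Cebpd, a factor of acute inflammation, was at 11.36, 12.50, 9.70 and 11.32 in AMPH 1 day pools 1 to 4, against 12.93, 13.46, 12.90 and 10.74 in AMPH 3 h pools 1 to 4. The differences of Jun, another AP-1 subunit, and Ier3 were 0.01 ± 0.42 and -0.07 ± 0.37 log2. Without AMPH 1 day pool 4, 2 of 30 genes of the list were called lower and 1 higher, near the shares over all genes (4.39% and 0.892%).

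Chemokines and adhesion genes had a median difference of -0.42 log2, with 8 of 28 at an unadjusted p under 0.05 and a negative difference and 1 with a positive one (13.1% and 4.82% of all genes). Cxcl1, a neutrophil attractant, was at 6.78, 6.20, 6.07 and 8.31 in AMPH 1 day pools 1 to 4, against 9.93, 11.90, 9.09 and 7.13 in AMPH 3 h pools 1 to 4, with a difference of -2.67 ± 0.84 log2 (unadjusted p = 0.00571, limma adjusted p = 0.154). Its AMPH 3 h level was highest in pool 2 and lowest in pool 4. Cxcl2, a related attractant, was at 6.54, 4.39, 5.11 and 6.91 in AMPH 1 day pools 1 to 4, against 8.19, 8.71, 8.37 and 5.73 in AMPH 3 h pools 1 to 4. Il6, a fever-inducing cytokine, was at 4.56, 5.01, 3.46 and 5.11 in AMPH 1 day pools 1 to 4, against 6.82, 8.03, 6.31 and 5.12 in AMPH 3 h pools 1 to 4. All AMPH 1 day pools lay below all AMPH 3 h pools, but pool 4 of each time only by 5.11 against 5.12. The difference was -2.03 ± 0.53 log2 (unadjusted p = 0.00131, limma adjusted p = 0.136). Its size is uncertain, because AMPH 1 day pools 1 and 3 lie under 4.83, the median level of the dimmest set of genes. Ccl2, the monocyte attractant, was at 7.37, 8.34, 7.50 and 8.24 in AMPH 1 day pools 1 to 4, against 9.45, 11.23, 7.88 and 8 in AMPH 3 h pools 1 to 4. Icam1, an adhesion molecule for leukocytes, had a difference of -0.73 ± 0.25 log2, and Vcam1, another, had 0.64 ± 0.30.

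Pool 4 of each time was also nearest to the other group in several genes of growth arrest and growth signals. Gadd45g, an inducer of growth arrest, was at 12.05, 10.80, 11.85 and 12.75 in AMPH 1 day pools 1 to 4, against 14.03, 14.68, 13.40 and 12.39 in AMPH 3 h pools 1 to 4. Only AMPH 1 day pool 4 reached into the AMPH 3 h range, and the difference was -1.76 ± 0.41 log2 (unadjusted p = 0.000496, limma adjusted p = 0.136). The p53 and growth arrest list had 6 of 20 at an unadjusted p under 0.05, all with negative differences (13.1% of all genes), and a median of -0.39 log2. Has1, which makes hyaluronan, was at 5.01, 7.11, 4.96 and 5.79 in AMPH 1 day pools 1 to 4, against 7.56, 8.27, 6.82 and 6.94 in AMPH 3 h pools 1 to 4, and overlapped through AMPH 1 day pool 2 alone. Spry1, an inhibitor of growth factor signalling, was at 8.85, 7.99, 8.18 and 9.28 in AMPH 1 day pools 1 to 4, against 9.82, 10.24, 9.68 and 8.54 in AMPH 3 h pools 1 to 4. A second, dimmer Spry1 probe had -0.44 log2 against -0.99 for the probe used. Tnfrsf12a, the receptor of TWEAK, was at 9.14, 8.32, 8.86 and 9.78 in AMPH 1 day pools 1 to 4, against 11.37, 11.22, 11.07 and 9.26 in AMPH 3 h pools 1 to 4, with a difference of -1.71 ± 0.38 log2 (unadjusted p = 0.000358, limma adjusted p = 0.136). It was chosen after its values were seen.

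Heme oxygenase Hmox1, which breaks down heme under oxidative stress, was at 9.90, 9.38, 8.05 and 9.92 in AMPH 1 day pools 1 to 4, against 10.46, 9.44, 10.98 and 8.42 in AMPH 3 h pools 1 to 4, with broad overlap and a difference of -0.51 ± 0.60 log2. Glucocorticoid targets as a list had a median of -0.15 log2, with 6 of 26 at an unadjusted p under 0.05 and a negative difference (13.1% of all genes). Some of its best known members had positive differences, which did not pass the test. Fkbp5, a feedback inhibitor of the receptor, had 0.38 ± 0.40 log2, and Tsc22d3, the glucocorticoid-induced leucine zipper, had 0.90 ± 0.66 log2 with its highest level, 15.29, in AMPH 1 day pool 2.

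The epithelial marker list depended on 1 pool. Its median difference was -0.69 log2 over 28 genes with all pools and -0.10 without AMPH 1 day pool 2. Transthyretin, Ttr, the most abundant secreted protein of the epithelium, was at 15.85, 15.90, 15.88 and 15.91 in AMPH 1 day pools 1 to 4, against 16.05, 16.05, 16.02 and 16.09 in AMPH 3 h pools 1 to 4. These values are at the top of the scale in every pool, so no difference is read from them. Slc4a5, a bicarbonate transporter of the apical membrane, was at 11.13, 7.37, 11.14 and 10.32 in AMPH 1 day pools 1 to 4, against 9.93, 10.27, 9.79 and 10.99 in AMPH 3 h pools 1 to 4, with the 1 pool far below. Kl had a difference of -0.94 ± 0.47 log2 with that pool and -0.18 ± 0.14 without it. Aqp1, the apical water channel, had -0.38 ± 0.21 (-0.21 after quantile normalization) with it and -0.14 ± 0.17 without it. Col8a1, a collagen of the list, was at 11.67, 11.31, 11.35 and 12.43 in AMPH 1 day pools 1 to 4, against 12.96, 13.03, 12.85 and 11.84 in AMPH 3 h pools 1 to 4, followed the stress genes in its pools, and had -0.98 ± 0.25 log2. Ion transport genes of fluid secretion had a list median of -0.40 log2, and -0.08 without AMPH 1 day pool 2.

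Several marker lists of vessels, stroma and immune cells had positive medians that depended on the same pool. The macrophage and monocyte list had 0.66 log2 with all pools and 0.32 without AMPH 1 day pool 2, with 6 of 16 (4.82% of all genes) and 2 of 15 (3.5%) at an unadjusted p under 0.05 and a positive difference. Acute phase and complement genes had 0.82 and 0.18. Stroma and meninges had 0.75 and 0.06. With all pools, 0 of these 17 genes had an unadjusted p under 0.05 with a positive difference. A negative difference at that p was seen in 4 of them (4.82% and 13.1% of all genes). For mural cells the medians were 0.47 and 0.10, and for endothelium 0.38 and 0.20. Some immune lists turned negative without that pool, with medians of 0.24 and -0.30 for neutrophils, 0.08 and -0.36 for B cells, and 0.15 and -0.16 for MHC class II genes. Cldn5, the tight junction protein of brain endothelium, was at 8.90, 10.09, 8.07 and 6.82 in AMPH 1 day pools 1 to 4, against 6.49, 6.93, 5.65 and 7.58 in AMPH 3 h pools 1 to 4, with a difference of 1.81 ± 0.50 log2 (unadjusted p = 0.00228, limma adjusted p = 0.136), and 1.27 ± 0.43 without AMPH 1 day pool 2. Timp1, an inhibitor of metalloproteases, was at 11.14, 15.90, 11.73 and 10.17 in AMPH 1 day pools 1 to 4, against 11.88, 11.43, 11.33 and 10.53 in AMPH 3 h pools 1 to 4, with AMPH 1 day pool 2 far above the rest. In that pool Timp1 was as bright as transthyretin, at the top of the scale, where a higher level could not be read. The part of other cell types in these list medians was not tested beyond leaving out that pool.

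**Figure D3:**
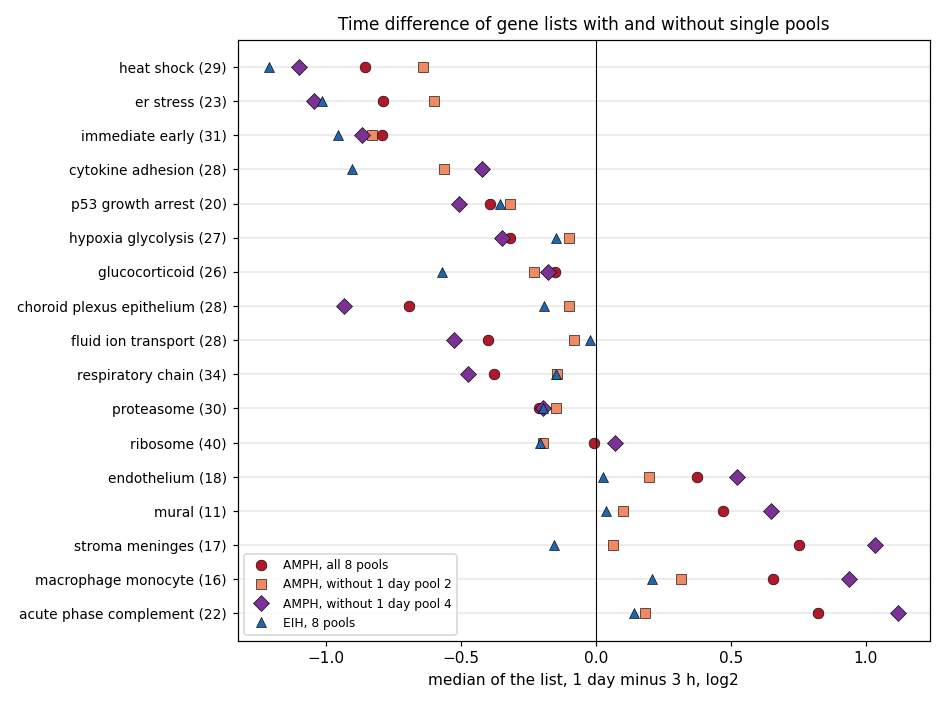
Median difference between 1 day and 3 h (log2, 1 day minus 3 h) of 17 gene lists, with the number of genes tested after each name. Symbols give AMPH with all 8 pools, AMPH without 1 day pool 2, AMPH without 1 day pool 4, and EIH. The heat shock and ER stress medians are negative in all 4 sets, while the epithelial and stromal medians come near 0 without AMPH 1 day pool 2.

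Bright housekeeping genes showed small negative differences that depended in part on the normalization. Respiratory chain genes had a median of -0.38 log2 over 34 genes, -0.22 after quantile normalization and -0.14 without AMPH 1 day pool 2. In 15 of them the AMPH 1 day pools lay wholly below the AMPH 3 h pools, against 6.07% of all genes. After quantile normalization this held for 1 of 34, against 3.49% of all genes. Ndufa8, a subunit of complex I, was at 11.34, 10.69, 11.12 and 11.66 in AMPH 1 day pools 1 to 4, against 12.02, 12.09, 12.08 and 11.81 in AMPH 3 h pools 1 to 4, with a difference of -0.80 ± 0.16 log2, and -0.66 after quantile normalization. Proteasome subunits had -0.21, and -0.07 after quantile normalization. Cytosolic ribosomal protein genes had -0.01, 0.14 after quantile normalization and -0.19 without AMPH 1 day pool 2, whose own ribosomal median of 15.12 stood above the 13.93 to 13.95 of the other AMPH 1 day pools. Without that pool, 37 of 40 genes had negative differences. An unadjusted p under 0.05 was reached by 23 with a negative and 2 with a positive difference, against 1050 and 332 of 9475 genes. After quantile normalization with all pools, 33 of 40 had positive differences. The sign thus depends on that pool and on the normalization, and no direction is read for this list.

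Among genes with a symbol other than a predicted locus, the smallest unadjusted p with a positive difference was that of Nat3, an arylamine N-acetyltransferase, at 7.55, 9.34, 8.63 and 8.14 in AMPH 1 day pools 1 to 4, against 3.64, 3.93, 5.65 and 3.42 in AMPH 3 h pools 1 to 4. All AMPH 1 day pools lay above all AMPH 3 h pools, and the difference was 4.25 ± 0.84 log2 (unadjusted p = 9.58e-05, limma adjusted p = 0.136). All AMPH 3 h values but one lie under 4.83, the median level of the dimmest set of genes, so the size of this difference is uncertain. Tnfsf12, which encodes the ligand TWEAK, was at 6.85, 7.31, 6.67 and 6.43 in AMPH 1 day pools 1 to 4, against 6.10, 6.28, 5.34 and 5.62 in AMPH 3 h pools 1 to 4, with a difference of 0.98 ± 0.21 log2. Slc6a4, the serotonin transporter, was at 6.29, 6.87, 6.59 and 7.78 in AMPH 1 day pools 1 to 4, against 5.04, 4.88, 5.74 and 5.07 in AMPH 3 h pools 1 to 4, with a difference of 1.70 ± 0.39 log2, while its second probe, near the bottom of the range at a mean of 4.59, had -0.12. Naaa, a lysosomal amidase, had 0.98 ± 0.23 and Rbm3, a cold-induced RNA-binding protein, had 1.08 ± 0.27, with Rbm3 at 10.08, 9.82, 9.52 and 8.51 in AMPH 1 day pools 1 to 4, against 8.75, 8.24, 8.10 and 8.53 in AMPH 3 h pools 1 to 4. Grik4, Car1, Igll1, Papss2 and Spmip8 complete the 10, with differences of 1.14, 0.74, 1.78, 0.88 and 0.96, all dim genes in these pools. A still dimmer Papss2 probe, at a mean level of 4.16, had -0.40 log2.

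With a negative difference the smallest unadjusted p values belonged to Cyp3a2, Ndufa8, Polr2f, Syvn1, Mtmr3, Tcea1, Ndufa2, Ets2, Api5 and Tmc2. Cyp3a2 was measured in 3 pools of each time. Ets2, a transcription factor induced by growth signals, was at 10.03, 10.49, 9.97 and 10.51 in AMPH 1 day pools 1 to 4, against 11.38, 11.31, 11.33 and 10.50 in AMPH 3 h pools 1 to 4, with a difference of -0.88 ± 0.18 log2 (unadjusted p = 0.000163, limma adjusted p = 0.136). A dimmer Ets2 probe, at a mean level of 5.45, had -0.50 log2. The basal transcription genes Polr2f, a polymerase subunit, and Tcea1, an elongation factor, had -0.60 ± 0.12 and -0.49 ± 0.10 log2, and -0.56 and -0.38 after quantile normalization. Api5, an inhibitor of apoptosis, and Mtmr3, a lipid phosphatase, had -0.45 ± 0.09 and -0.53 ± 0.11, and -0.28 and -0.39 after it. Dimmer probes of Mtmr3, at mean levels of 5.48 and 5.15, had -0.18 and 0.77 log2 before it. Without AMPH 1 day pool 2, Thbs1, which encodes thrombospondin, was among the 6 smallest with -2.42 ± 0.43 log2, a size that is uncertain because the AMPH 1 day pools left are under 4.83. It was at 3.43, 7.19, 4.19 and 3.62 in AMPH 1 day pools 1 to 4, against 5.95, 5.26, 6.93 and 6.53 in AMPH 3 h pools 1 to 4.

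The same time comparison after EIH uses 8 other pools, some of which share rats by their titles. With limma, 94 of 9990 genes were called, 92 lower at EIH 1 day (0.921%) and 2 higher (0.02%), while 989 (9.9%) and 293 (2.93%) had an unadjusted p under 0.05 in each direction. The count ranged over 0 to 430 when 1 array was left out, was 430 without AMPH 1 day pool 2, and was 0 after quantile normalization. All 94 had the same sign in AMPH, as did 67% of all 9737 genes tested in both. The 92 had a median of -0.53 log2 in AMPH and -0.84 in EIH, and 79 of them had an unadjusted p under 0.05 in AMPH, against 13.1% of all genes with a negative difference at that p. The mean level over 90 of these genes measured on every array was 10.45, 10.39, 10.23 and 10.97 in AMPH 1 day pools 1 to 4, against 11.26, 11.39, 11.30 and 10.73 in AMPH 3 h pools 1 to 4. It was 10.28 to 10.45 in the saline 3 h pools. AMPH 1 day pools 1 to 3 thus lay within or just under the saline 3 h range, and both pools numbered 4 stood between the groups. Over 9737 genes, the AMPH and EIH time differences had r = 0.307 (Spearman 0.391). The contrasts share no arrays but share the spread estimate and the scaling, and genes are not independent. By the titles, AMPH 3 h pool 2 and EIH 1 day pool 3 list the same rat number. EIH 1 day pools 2 and 3 share another, as do EIH 1 day pools 3 and 4, and EIH 1 day pool 4 and EIH 3 h pool 2. The 4 EIH 1 day pools are thus not independent replicates, as the test takes them to be.

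**Figure D4:**
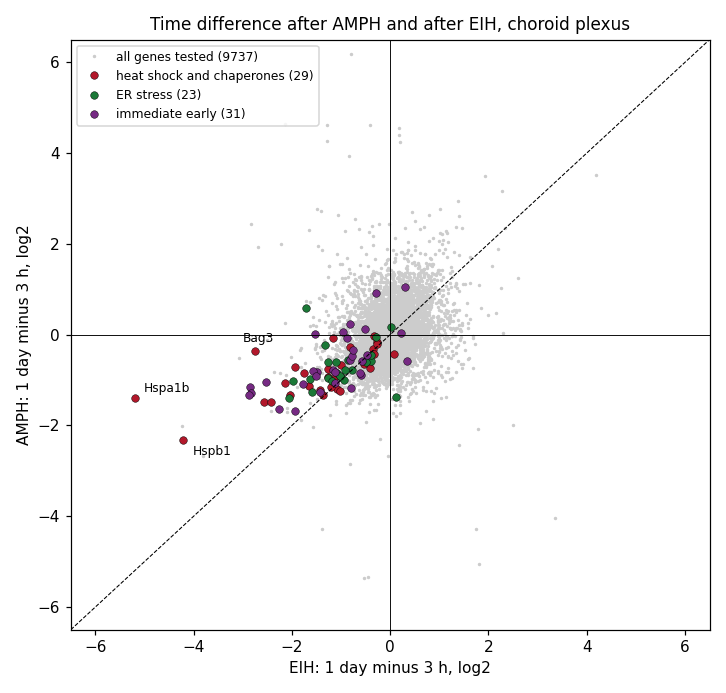
Time difference of each gene after AMPH (vertical) and after EIH (horizontal), as log2 of 1 day minus 3 h, with the line of equal difference dashed. Grey points are all 9737 genes tested in both and coloured points members of 3 stress lists. Hspa1b and Hspb1 lie at the lower left above the dashed line, at -1.40 and -2.31 after AMPH, and -5.19 and -4.21 after EIH.

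Whether the time difference after AMPH departed from that after EIH was tested directly. Of 9737 genes, 0 were called (0%), with 270 at an unadjusted p under 0.05 (2.77%) and a smallest adjusted p of 0.968. Heat shock genes had a median of 0.34 log2 (AMPH minus EIH), ER stress genes 0.22, immediate early genes 0.60 and chemokine and adhesion genes 0.74. Positive values mean a less negative difference after AMPH. These medians moved without AMPH 1 day pool 4, to 0.17, -0.08, 0.44 and 0.66 for the same lists. Hspb1 had -2.31 log2 after AMPH and -4.21 after EIH, a difference of 1.90 ± 1.01 (unadjusted p = 0.0767, limma adjusted p = 0.968). Hspa1b had -1.40 and -5.19 (unadjusted p = 0.0241, limma adjusted p = 0.968), and Hmox1 had -0.51 and -3.08 (unadjusted p = 0.00793, limma adjusted p = 0.968). For Hsph1 the values were -1.49 and -2.42, for Manf -1.40 and -2.07, and for Gadd45g -1.76 and -1.23. A p that misses the threshold does not show that the exposures act alike.

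The smallest unadjusted p values of that test were held by dim genes. With AMPH above EIH these were Stard8, Brip1, Igll1 and Slc17a3, at 1.79, 1.02, 2.27 and 2.17 log2. With AMPH below EIH they were Sdcbp2, Phactr3, Gpr160 and Chrna5, at -2.72, -2.50, -1.61 and -1.92. Sdcbp2 was measured in 3 AMPH 1 day pools, and Chrna5 in 3 pools of each AMPH time. Leaving out pool 4 of both AMPH times gave 0 calls as well, and leaving out the pools that list a recurring rat gave 59. That set holds 1 EIH 1 day pool (pool 1), which the fit assumes to vary like the other groups.

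Blood of saline rats, the only unexposed material at both times, had 128 of 8787 genes called between 1 day and 3 h, 45 higher (0.512%) and 83 lower (0.945%). At an unadjusted p under 0.05 there were 615 higher (7%) and 826 lower (9.4%). The median difference of the heat shock list in blood was -0.17 log2 and of the ER stress list -0.17, against -0.85 and -0.79 in the AMPH choroid plexus. Hspb1 had 0.37 ± 0.67 log2 in saline blood (limma adjusted p = 0.842). Of the 1636 genes at an unadjusted p under 0.05 in the AMPH choroid plexus that were also tested in blood, 26 were called in saline blood, 18 of them with the same sign. Blood is another tissue, and its time difference includes anything else that differs between the 1 day and 3 h arrays. A choroid plexus background of time was not analysed here.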

How the data were processed

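Values are probe intensities of one-colour Agilent arrays, as the authors deposited them on a linear scale; how they were normalized is not given in the sources used here. Total RNA was labelled with Cy3, per the labels. Probes were named through platform annotation and RefSeq. Of 14055 probes, 12926 had 1 gene, and the probe with the highest mean stood for each of 10412 genes. Here log2 was taken and each choroid plexus array was shifted to the same median over 11704 complete probes. limma 3.58.1 fitted 1 mean per group over 20 arrays (blood separately, 24 arrays). A gene needed 3 values in each group compared, and p-values were adjusted by Benjamini-Hochberg. The contrasts were AMPH 1 day minus 3 h, the same after EIH, their difference, and saline blood. Named genes were those of smallest p, a fixed set, and list members. Members and lists were chosen with earlier results of these data known, and the pools left out were chosen from their levels. Replicates are separate pools of 3 rats, some sharing a rat number. The number of arrays limits precision. The script was tested on simulated data.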

Additional observations from a re-analysis of the deposited data

Results flagged for a closer look

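In 16 of 86 groups checked, 1 pool stood beyond Dixon's critical value for 4 samples. Values are the gap to the nearest pool over the range. Chance flags about 1 in 20 independent groups. The genes and lists checked were chosen with earlier results of these data known, and many share a deviating pool. The 16 are therefore not read against that rate. AMPH 1 day pool 2 was the lowest of its group for Kl (0.896), Folr1 (0.957) and the medians of the choroid plexus epithelium (0.878), fluid and ion transport (0.884) and respiratory chain (0.841) lists. The same pool was the highest for Col1a1 (0.836) and the medians of the stroma and meninges (0.865), endothelium (0.911), mural (0.87) and ribosome (0.988) lists.

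AMPH 1 day pool 4 was the highest of its group in the medians of the heat shock (0.891) and ER stress (0.86) lists. AMPH 3 h pool 4 was the lowest of its group for Hspb1 (0.957), Hsph1 (0.835) and Hspa5 (0.984). For Hspa5 the other AMPH 3 h pools were at the top of the scale, which limits the range behind that ratio. AMPH 3 h pool 1 was the highest for the mural list median (0.916).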

How the results depend on the processing

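With all 8 AMPH pools, 0 genes were called, against 1 with 2 or more values per group or only the groups compared, 168 with array weights, and 0 to 503 when 1 array was left out (503 without AMPH 1 day pool 4, 13 without AMPH 3 h pool 4). Without pool 4 of both times, chosen after seeing the data, there were 739, and 736 also without AMPH 1 day pool 2. Without AMPH 1 day pool 2 alone the 0 became 203 with the median over all values of an array, 1 with 2 or more values, 67 with array weights, and 0 to 105 when a further pool was left out (105 without AMPH 1 day pool 4, 66 without AMPH 3 h pool 4). For AMPH minus EIH the 0 became 1 with 2 or more values, 59 without pools that list a recurring rat (1 EIH 1 day pool left), and 0 to 0 when 1 array was left out. The 94 EIH genes became 0 on the values as deposited, at the same 75th percentile, after quantile normalization and with a minimum of 1.5-fold. They became 183 without the lowest 25% of genes, 25 with the mean over probes, 166 with an intensity trend, 1475 with array weights, 289 with only the groups compared, 275 without recurring rats (182 higher and 93 lower, with 1 EIH 1 day pool left, assumed to vary like the other groups), 286 without AMPH 1 day pool 2 and EIH 1 day pool 1, and 0 to 430 when 1 array was left out. The 128 genes of saline blood became 73 as deposited, 79 at the same 75th percentile, 25 after quantile normalization, 202 without the lowest 25%, 208 with an intensity trend, 206 with array weights, 0 with a minimum of 1.5-fold, 0 with only the saline groups, and 12 to 409 when 1 array was left out. The cause was not tested. No paired analysis was possible because the labels give no replicate numbers, and the pool numbers only follow the order of the samples. Blank cells and values at the top of the scale limit dim and bright genes.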

Other observations

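The heat shock list was also read in trunk blood of single rats, over 26 genes and on the blood arrays' own scale. Its median was 10.41, 10.44, 9.59 and 10.09 in AMPH 1 day rats 1 to 4, against 10.79, 11.87, 10.03 and 11.34 in AMPH 3 h rats 1 to 4. By the rat numbers, AMPH 3 h blood 3 comes from a rat of choroid plexus AMPH 3 h pool 4, and it was the lowest of its group. AMPH 1 day blood 4 comes from a rat of choroid plexus AMPH 1 day pool 4, and it lay inside its group's range. Blood from the other rats of these pools was not analysed here.

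Some of the largest differences belong to genes whose levels fall into 2 separated sets over the choroid plexus arrays of all groups. The difference (AMPH 1 day minus 3 h) was -5.37 log2 for Phb1, with a gap of 5.41 log2 and 4 of 20 arrays below it. It was -5.35 log2 for Nfatc2ip (gap 4.84, 9 of 20 arrays below) and 4.64 log2 for Dpf2 (gap 4.61, 7 of 20 below). For Scn10a it was 4.39 log2 (gap 3.95, 16 of 20 below). None of them passed the adjusted test.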
